A study of Mus musculus with 2 samples.

Results

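Megakaryocyte and platelet genes were examined in LT-HSC, the long-term blood stem cells of the marrow that sustain every blood lineage, from WASH knockout and control mice. The genes were picked by name: Gp1ba, Gp1bb, Gp9, Gp5, Vwf, Pf4, Ppbp, Clec1b, Treml1 and Tubb1, and every array sequence that carried one of these gene names was taken. Rows were found for 7 of the 10 genes, with 15 of the 44170 sequences on the arrays. The expression of Gp1ba, Gp1bb and Tubb1 was not analysed here, and these genes enter only the promoter counts below. Both groups were C57/BL6 mice kept under specific-pathogen-free conditions, one a wild type control and the other a knockout of WASH, a protein that activates the actin nucleator Arp2/3 on endosomes. LT-HSC were sorted from femur marrow, and RNA labelled with Cy3 was hybridised to a NimbleGen mouse expression array, 1 array per genotype. The labels used here give neither the deleted allele and its driver, nor the ages of the mice, nor how many mice supplied each array. With 1 array per genotype there is no replicate spread, no standard error and no test of any difference, so every statement below compares 2 arrays.

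Megakaryocytes are the large marrow cells that shed platelets. Platelets stick to a damaged vessel wall when the GPIb-IX-V receptor catches von Willebrand factor, and they then release alpha granules, which hold the chemokines platelet factor 4 and pro-platelet basic protein. GATA and ETS family transcription factors switch on many of these genes during megakaryocyte maturation. Some stem cells already carry part of this programme, and Vwf in particular marks a platelet-biased fraction of LT-HSC.

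Pf4 and Ppbp, which encode alpha granule chemokines, were the members with the lowest values on the knockout array relative to the control. Both were more than 2-fold lower, while Vwf, Gp9, Clec1b and Treml1 differed by less than 2-fold with every sequence. No member was 2-fold higher. Clec1b and Treml1, both platelet surface receptors, differed in opposite directions with their brightest sequences, by -0.45 and 0.30 on the log2 scale.

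The stretches of 250 bases before the annotated gene start are printed for Ppbp and Pf4, the members that were lower by 2-fold or more, and for Clec1b and Treml1 as members that were not. They come from RefSeq on GRCm38.p6, where 9 of the 10 genes, all except Vwf, had a promoter entry. Capitals mark GATAA, a core of GATA factor motifs, and GGAAG, a core of ETS factor motifs, on either strand (TTATC and CTTCC on the strand shown). All 4 are on the plus strand: Ppbp at chr5:90768268-90768517, Pf4 at chr5:90772185-90772434, Clec1b at chr6:129397047-129397296 and Treml1 at chr17:48359666-48359915.
Ppbp: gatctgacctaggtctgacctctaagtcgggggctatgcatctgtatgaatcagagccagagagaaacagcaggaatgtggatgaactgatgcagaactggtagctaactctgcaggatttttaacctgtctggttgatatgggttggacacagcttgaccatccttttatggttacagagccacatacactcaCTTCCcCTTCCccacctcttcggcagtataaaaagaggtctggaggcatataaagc
Pf4: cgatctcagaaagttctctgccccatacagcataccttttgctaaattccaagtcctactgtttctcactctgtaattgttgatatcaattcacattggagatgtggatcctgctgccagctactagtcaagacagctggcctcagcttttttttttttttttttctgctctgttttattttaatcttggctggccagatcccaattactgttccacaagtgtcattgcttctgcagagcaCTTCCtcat
Clec1b: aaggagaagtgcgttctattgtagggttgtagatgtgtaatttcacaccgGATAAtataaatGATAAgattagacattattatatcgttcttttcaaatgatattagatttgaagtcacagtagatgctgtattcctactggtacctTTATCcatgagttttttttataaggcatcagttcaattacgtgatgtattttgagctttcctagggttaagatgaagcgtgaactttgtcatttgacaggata
Treml1: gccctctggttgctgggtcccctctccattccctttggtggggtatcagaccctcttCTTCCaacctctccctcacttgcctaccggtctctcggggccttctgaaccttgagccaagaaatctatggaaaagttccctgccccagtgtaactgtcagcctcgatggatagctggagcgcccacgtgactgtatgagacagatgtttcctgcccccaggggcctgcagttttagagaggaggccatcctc

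The search window of 300 bases also took in the first 50 bases after the start. Over that window the GATA letters occurred in 5 of the 9 members with an entry, against 25.4% of 32851 promoters, and the ETS letters in 8 of 9, against 71.4%. The 9 include Gp1ba, Gp1bb and Tubb1, whose expression was not analysed. No GATA match overlapped an ETS match in these genes. Ppbp had 2 ETS matches, 50 and 56 bases before the start, and no GATA match. Pf4 had 1 ETS match, 9 bases before the start, and 1 GATA match, 38 bases after it (chr5:90772464-90772484, plus strand, shown for this match).
Pf4 site: gcagtgaaGATAAaacgtgct

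Clec1b had 4 GATA matches, at 200, 188 and 103 bases before the start and 39 after it, and no ETS match. Treml1 had 1 ETS match, 193 bases before its start. A match is a run of letters only, and nothing in these arrays measured binding at it.

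The deposited values are RMA intensities, a background-corrected and array-normalized brightness in arbitrary units, 1 per sequence, from 3 probes for each member sequence. The arrays were alike in distribution, with medians of 137 on both and upper quartiles of 328 in the control and 329.9 in the knockout. Probes of random sequence, 5000 per array, set the background: 71.3 for the control and 75.7 for the knockout. A gene is called in the detected range when at least 1 of its values was above the median of its array, which held for 16245 of 24171 genes (67.2%) and for 6 of the 7 members. Where a gene had several sequences, the brightest stood for it. Differences are log2 knockout minus log2 control, so that -1 is a 2-fold lower value on the knockout array. Coordinates of array sequences are on MM9.

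**Figure D1:**
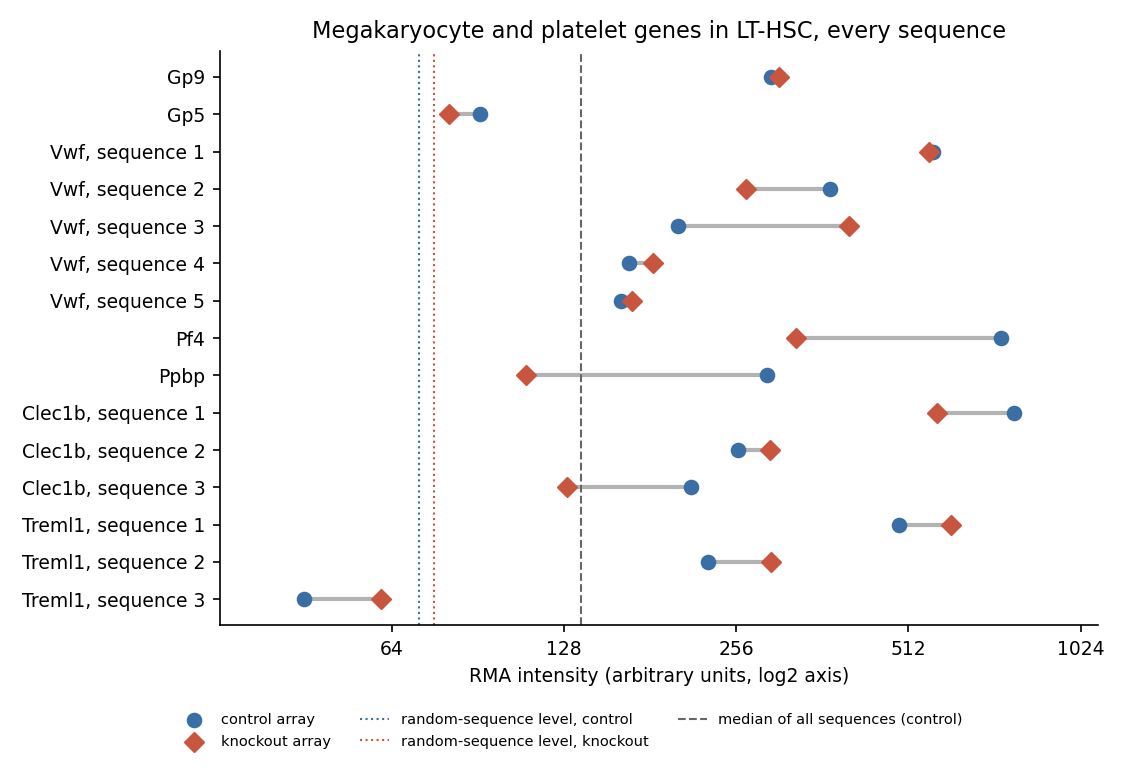
RMA intensity of each of the 15 sequences of the 7 measured genes (log2 axis) on the control array (circles) and the knockout array (diamonds), joined by a line; dotted lines mark the random-sequence levels and the dashed line the median of the control array. Pf4 and Ppbp have the longest lines to the left, from 743 to 325 and from 289 to 109.9, while the other sequences lie closer together or, for Vwf sequence 3, run to the right.

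In the receptor complex GPIb-IX-V, the genes of its GPIX and GPV subunits could be read. Gp9 (chr6:87728134-87729590) was at 294 in control and 304 in knockout LT-HSC, a log2 difference of 0.05. Gp5 (chr16:30308238-30309941) was at 91.2 and 80.4, only 1.28 and 1.06 times the random-sequence level, and was outside the detected range on both arrays. Its difference of -0.18 therefore rests on values at background. Gp9 and Gp5 had 1 sequence each. Gp9, which supports surface expression of the complex, was thus detected at nearly equal intensity on the arrays, and the level of Gp5 was not resolved.

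Vwf, the ligand of this receptor and also a product of endothelial cells, was read by 5 sequences. The brightest (chr6:125553567-125593431) was at 566 in control and 557 in knockout LT-HSC (-0.02). The second in control intensity (chr6:125482604-125542489) was at 373 and 266 (-0.48). The third (chr6:125502980-125542489) went the other way, from 203 to 403 (0.99). The remaining pair lay near 2 times the random-sequence level, at 166 and 183 (chr6:125596270-125611985, 0.14) and at 161 and 168 (chr6:125502980-125554794, 0.07). Of the 5 sequences, 3 were higher and 2 lower, and none differed by 2-fold.

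The genomic spans of 4 of the 5, the brightest included, overlap that of at least 1 other. Where the probes lie within the spans is not known here, so whether the sequences are separate measurements of the gene cannot be told. The second and the third in control intensity share their right end, yet they gave the lowest and the highest difference. The range over the 5 sequences was 1.48, against a median range of 1.15 over 114 genes with 5 detected sequences. The mean of the 5 was 0.14, so its sign differed from that of the brightest sequence, and no direction can be given for Vwf. Endothelial markers, from the other main source of Vwf, summed to 8295 and 9319, and their part in the Vwf values was not tested. The largest parts of these sums were Pecam1 (2295 and 2376) and Ramp2 (1665 and 1846). Tek, Cldn5 and Icam2 were below the random-sequence level on both arrays.

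**Figure D2:**
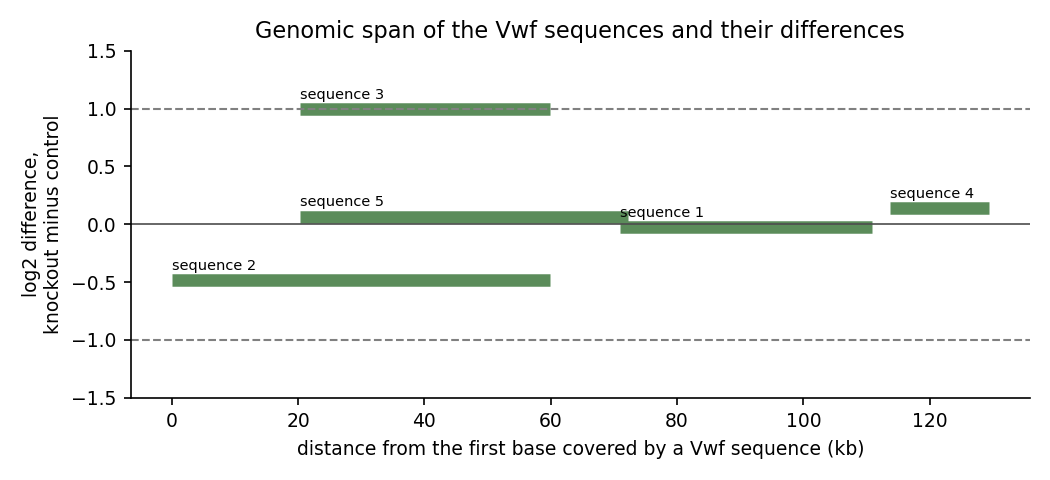
Log2 difference, knockout minus control, of each Vwf sequence (vertical axis) against the stretch of the genome that it spans, in kb from the first base covered (horizontal axis); dashed lines mark 2-fold. The third sequence, at 0.99, and the second, at -0.48, end at the same position, while the sequences towards the right end lie near 0.

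The alpha granule chemokines stood lowest. Pf4, which encodes platelet factor 4 (chr5:91201528-91202409), was at 743 in control and 325 in knockout LT-HSC. This is a difference of -1.19, or 2.28-fold lower, with both values well over background at 10.4 and 4.30 times the random-sequence level. Ppbp, which encodes the precursor of beta-thromboglobulin (chr5:91197576-91198485), was at 289 and 109.9, a difference of -1.40 or 2.63-fold lower. On the knockout array Ppbp was at 1.45 times the random-sequence level and below the array median, so it entered the detected range through the control array alone. Each gene had 1 sequence, and agreement between sequences could not be examined.

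These were 2 of 6 members in the detected range at 2-fold or more lower, where 7.29% of all genes in that range were. Since Ppbp passed through the control array, where it was high, nothing is read from this count, and where both arrays had to exceed 2 times the random-sequence level Pf4 was the 1 member at 2-fold or more lower. None of the 6 was 2-fold higher, where 6.41% of all genes were. Among genes within 0.5 log2 units of the same mean brightness, 5.44% of 3933 genes around Pf4 and 7.30% of 5249 around Ppbp were also 2-fold lower. In all, 1185 genes were at least 2-fold lower on this pair of arrays. With an offset of 100 intensity units added before the log, Pf4 and Ppbp were at -0.99 and -0.89 and no member reached 2-fold. Of 20 granulocyte and monocyte markers in the detected range, 14 were also lower on the knockout array and 6 were higher, with summed intensities of 148112 and 60296 over 23 genes, and their part in the values of Pf4 and Ppbp was not tested.

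**Figure D3:**
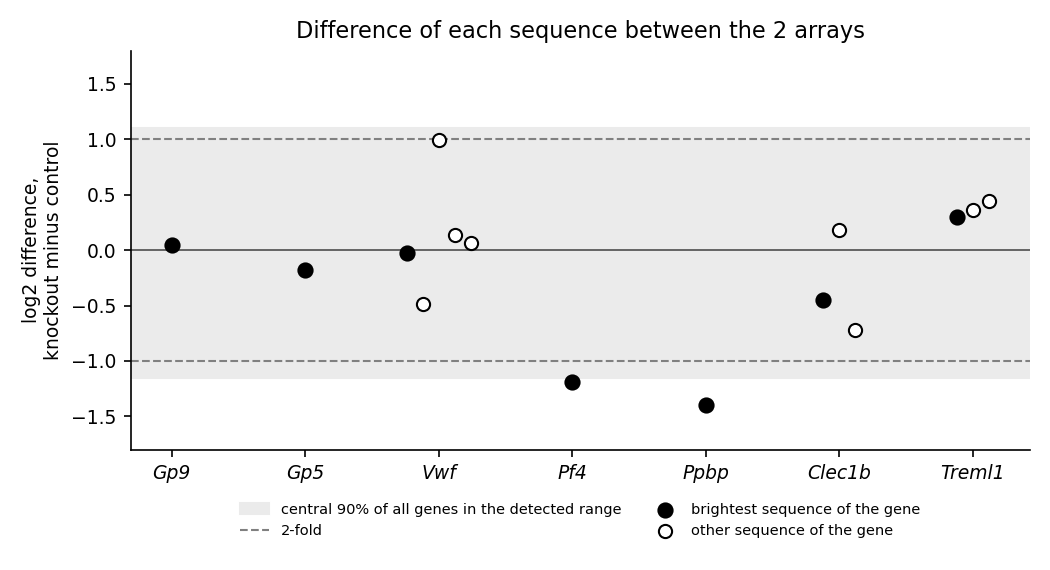
Log2 difference, knockout minus control, of every sequence of each measured gene; filled circles are the brightest sequence of a gene, open circles its other sequences, the dashed lines mark 2-fold and the grey band the central 90% of all genes in the detected range (-1.16 to 1.10). Pf4 and Ppbp lie below the band, and all other sequences lie inside it.

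Ppbp and Pf4 lie next to each other on chromosome 5, with 3042 bases between their array sequences, inside a cluster of CXC chemokine genes that attract neutrophils. Of the 5 other genes of that cluster on the arrays, 4 were in the detected range and none of these was 2-fold lower. Cxcl5, 9.2 kb to the left of Ppbp, was at 448 and 519 (0.21). Cxcl3, 17.6 kb to the right, was at 266 and 405 (0.61), and Cxcl2 was at 602 and 809 with its brightest sequence (0.43) and higher with its other one (0.52). Cxcl1 was at 286 and 243 (-0.24). Cxcl15 was below the random-sequence level on both arrays. Of the 4 in the detected range, 3 were higher on the knockout array, and none differed by 2-fold.

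**Figure D4:**
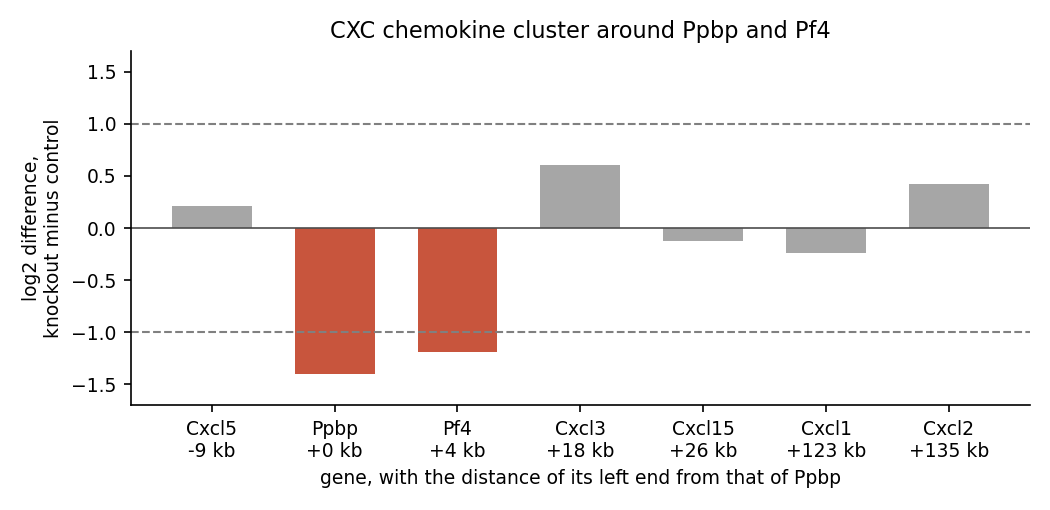
Log2 difference, knockout minus control, of the brightest sequence of each CXC chemokine gene around Ppbp and Pf4, in genomic order, with the distance of the left end of each from that of Ppbp in kb; dashed lines mark 2-fold. Ppbp (-1.40) and Pf4 (-1.19) point down past 2-fold, and the other 5 genes, of which Cxcl15 is below the random-sequence level, lie between -0.24 and 0.61.

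Among the surface receptors, Clec1b encodes CLEC-2, the platelet receptor for podoplanin, which some stem cells also carry. Its 3 sequences are annotated to the same interval (chr6:129347314-129355349). The brightest was at 783 in control and 574 in knockout LT-HSC (-0.45), the second at 258 and 293 (0.18) and the third at 213 and 129 (-0.72). The brightest and the dimmest were lower and the middle one higher, over a range of 0.91, beside a median range of 0.96 for 1119 genes with 3 detected sequences. Clec1b was well detected on both arrays, at 11.0 and 7.58 times the random-sequence level with its brightest sequence.

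Treml1 encodes TLT-1, a receptor stored in platelet alpha granules. All 3 of its sequences were higher on the knockout array. The brightest (chr17:48499240-48506471) went from 492 to 607 (0.30) and the second (chr17:48499243-48506471) from 229 to 294 (0.36). The third (chr17:48499240-48506346) was below the random-sequence level on both arrays, at 45.0 and 61.1, and no fold is given for it. The detected pair agreed to within 0.06, closer than the median range of 0.57 over 3363 genes with 2 detected sequences. These sequences overlap over almost their whole length, and each difference was well under 2-fold.

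Taking each of the 6 members in the detected range once, 2 were higher and 4 lower by their brightest sequences, with a median difference of -0.24. Vwf, at -0.02, is counted among the lower ones, although its direction depended on the sequence. The median over all 16245 genes in that range was 0.03, with 8402 higher and 7839 lower. Without Pf4 and Ppbp the median of the remaining 4 members was 0.01. Over single sequences, 7 of 13 in the detected range were higher and 6 lower. The members' median was -0.72 with the dimmest sequence of each gene, which left 5 members, without Treml1. It was -0.02 where both arrays had to exceed 2 times the random-sequence level, which left 5 members, without Ppbp. The members did not share a direction.

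The rest of the platelet programme was read through wider lists of genes. Of 25 other platelet receptors and adhesion molecules, 19 were in the detected range, with 9 higher, 10 lower and a median of -0.02. The tetraspanin gene Cd9, abundant on platelets and on many other cells, was at 4578 in control and 1740 in knockout LT-HSC (-1.40). Cd36, the scavenger receptor that binds thrombospondin, was at 121 and 356 (1.56), with differences of 1.12 to 1.56 over its 3 sequences. Jam3, a junctional adhesion gene, was not above the random-sequence level in the control. In the knockout it was at least 2.11-fold higher, at 1.99 times the random-sequence level, and its other sequence was at 0.53. Cd36 and Jam3 were the 2 genes of this list at 2-fold or more higher, beside 6.41% of all genes in the detected range. Both entered that range through the knockout array alone, so nothing is read from this count. Besides Cd9, the list had 2 genes at 2-fold or more lower, beside 7.29% of all genes in the detected range. Named after their values were seen, these were the prostacyclin receptor gene Ptgir and Fcer1g, the signalling partner of Gp6, both at -1.11. Ptgir entered the range through the control array alone.

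Some receptors with a central role in platelets were looked up by role after their values were seen. Itga2b and Itgb3 encode the subunits of the fibrinogen receptor. Itga2b was at 492 and 692 (0.49), with 2 of its 4 sequences higher and 2 lower, while Itgb3 was at 234 and 120 (-0.96) and both of its sequences were lower. The collagen receptor gene Gp6 was at 228 and 279 (0.29), and both of its sequences were higher. The subunit genes of the fibrinogen receptor thus differed in opposite directions with their brightest sequences.

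Granule genes other than Pf4 and Ppbp gave a median of -0.09, with 7 of 17 in the detected range higher and 10 lower. None was 2-fold higher and 3 were 2-fold lower, beside 6.41% and 7.29% of all genes in the detected range. Tgfb1, a growth factor gene expressed by many blood cells, was at 226 in the control and below the random-sequence level in the knockout, at least 2.99-fold lower. F5, the coagulation factor V gene, was at 362 and 177 (-1.03). Sparc was at 271 and 134 (-1.01), but its 3 sequences ran from -1.60 to 0.83. Tgfb1 and Sparc entered the detected range through the control array alone, so nothing is read from the count of 3. The sign of this list's median depended on the filter, since it was 0.15 with genes above the 75th percentile only. It was -0.83 with the dimmest sequence of each gene.

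Genes of platelet signalling and cytoskeleton had a median of -0.22, with 8 of 21 higher and 13 lower. Of the 21, 1 was 2-fold higher and 4 were 2-fold lower, beside 6.41% and 7.29% of all genes in the detected range. The median of the list was -0.73 with the dimmest sequence of each gene, which left 10 genes in the detected range. The actin crosslinker gene Flna was at 604 and 278 (-1.12) and Bin2 at 2087 and 1010 (-1.05), each with 1 sequence. Ptgs1, the cyclooxygenase that platelets use to make thromboxane, was at 462 and 225 (-1.04) with its brightest sequence, and its other sequence was higher by 0.41. Named after their values were seen, the myosin light chain gene Myl9 was at 591 and 292 (-1.02, with 3 sequences from -1.02 to 0.40) and the integrin activator gene Fermt3, the one higher by 2-fold, at 299 and 607 (1.02, its other sequence -0.21). Flna, Bin2 and Fermt3 are used by leukocytes as well as by platelets.

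The transcription factors of the megakaryocyte lineage split evenly, with 8 of 16 higher and 8 lower and a median of 0.04. Tal1, shared by erythroid cells, megakaryocytes and stem cells, was at 608 and 1301 (1.10), with differences of 1.10 to 1.28 over its 3 sequences. It was the one factor of the list at 2-fold or more, where 6.41% of all genes in the detected range were higher by as much. Gata1 and Nfe2, both needed for platelet formation and named here after their values were seen, were at 523 and 681 (0.38) and at 163 and 172 (0.07). In the list of platelet-biased stem cell genes apart from Vwf and Clec1b, 3 of 6 were higher and 3 lower, with a median of 0.14. Mmrn1, which encodes a binding protein of factor V, was at 629 and 904 (0.52), but 2 of its 3 sequences were lower. None of the 6 in the detected range reached 2-fold. Some genes of that list, such as Itga2b, Itgb3, Selp, Gata1 and Mmrn1, are also in the preceding lists.

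**Figure D5:**
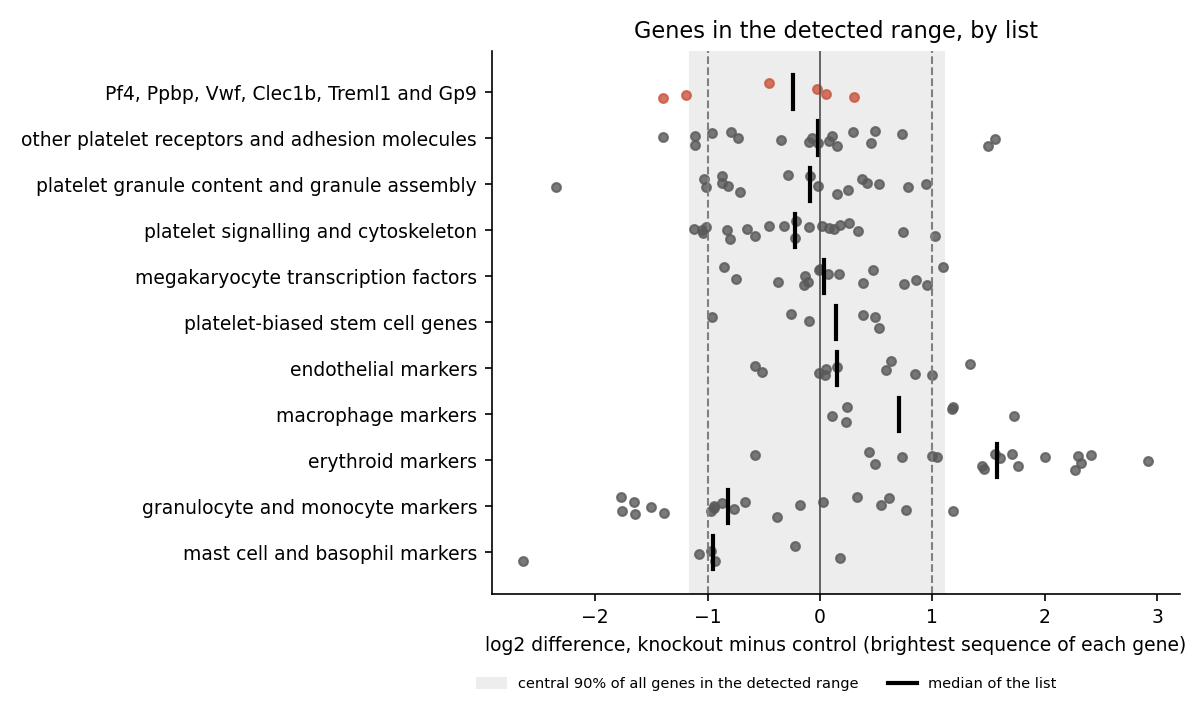
Log2 difference, knockout minus control, of each gene in the detected range, by list (points, brightest sequence; vertical position within a list is arbitrary), with the list median as a bar, 2-fold as dashed lines and the central 90% of all genes as a grey band. The platelet lists centre between -0.24 and 0.14, whereas erythroid markers centre at 1.58 and granulocyte and monocyte markers at -0.82.

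The label LT-HSC and the share of other cells were checked through markers. Of 13 genes listed as LT-HSC markers, 8 were in the detected range. Among them were Kit (398 and 489), Ly6a (835 and 596) and Slamf1 (147 and 123, or 2.06 and 1.63 times the random-sequence level). The 8 also include Cd34 (746 and 1105) and Cd48, which mark LT-HSC by a low level or absence. The count of 8 therefore does not show that the label holds. Procr, Fgd5 and Tek were at or below the random-sequence level on both arrays, so these defining markers were not seen. Cd48, a marker that LT-HSC lack, was at 152 on the control array and at least 2.01-fold lower on the other, where it was not above background. Mecom, a stem cell regulator, was at 350 and 163 (-1.10), with its 6 sequences between -1.65 and 0.49.

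Markers of other lineages differed between the arrays beside the platelet genes. Erythroid markers were higher for 17 of 18 genes in the detected range, 13 of them by 2-fold or more, beside 6.41% of all genes. Car1 and Klf1, among the 13, entered the detected range through the knockout array alone, so the 13 are not read against that share. The list's median was 1.58, also with both arrays above 2 times the random-sequence level (16 genes). The summed intensity of erythroid markers was 17426 in the control and 87027 in the knockout over 19 genes. These sums were carried mainly by the globin genes Hbb-b1 (5699 and 43218) and Hba-a2 (5551 and 26801), so they do not describe the whole list. The differences were 2.92 for Hbb-b1 and 2.41 for Hba-a1, both globin genes whose near-identical copies may share signal, and 2.32 for the carbonic anhydrase gene Car2. Granulocyte and monocyte markers were lower for 14 of 20, 6 of them by 2-fold or more, beside 7.29% of all genes. The other 6 were higher, 1 of them by 2-fold or more. Named after their values were seen, the higher ones included Csf1r (1.19), Itgam (0.77), Ly6c2 (0.62) and Fcgr3 (0.55), and the first, second and last of these had at least 1 sequence that was lower. The summed intensity was carried mainly by the neutrophil granule and calcium-binding protein genes S100a8, S100a9, Ngp, Ltf and Lcn2. The neutrophil genes Fcnb, Chil3 and Lcn2 were at -1.77, -1.76 and -1.65. Fcnb entered the detected range through the control array alone and Itgam through the knockout array alone. Nothing is therefore read from the counts of the granulocyte and monocyte list. Its median was -0.82, also with both arrays above 2 times the random-sequence level (18 genes). Mast cell and basophil markers were lower for 5 of 6, with sums of 6514 and 3905, led by Gzmb (-2.64), which lymphocytes also make, and Prg2 (-1.08). Gzmb entered the detected range through the control array alone. The median of this list was -0.95, but -0.22 over 11 genes without a filter. That setting adds Fcer1a (0.36), Tpsab1 (0.26), Tpsb2 (0.11), Cpa3 (-0.19) and Cma1 (-0.82). Of these, Fcer1a, Tpsb2 and Cpa3 were below the random-sequence level on both arrays. All 6 macrophage markers in the detected range were higher (median 0.71, sums of 7726 and 8859), among them Cd5l (1.18) and C1qa (1.17). The sums were carried mainly by Adgre1 (6543 and 7056, 0.11). Mertk was below the random-sequence level in the control and entered the detected range through the knockout array alone. The median of the macrophage list was 0.24 with the mean of the sequences or with both arrays above 2 times the random-sequence level. It was 0.33 without a filter, which adds genes that were lower, such as C1qb (-0.58) and Vcam1 (-0.34). Endothelial markers were higher for 8 of 11, with a median of 0.15, and 3 of 17 were at or below the random-sequence level on both arrays. The one counted at 2-fold or more, Kdr, was at background in the control (1.04 times the random-sequence level) and at 2.46 times that level in the knockout, and its other sequence was lower, so no fold is given for it. B cell markers had a median of 0.06 (sums of 3177 and 4346), with Ms4a1 at 0.96 and Pax5 at 0.69. Centring, quantile normalization and loess left that median at 0.06 to 0.08. It depended on the filter, at 0.36 without one (10 genes) and 0.69 above the 75th percentile (3 genes). With both arrays above 2 times the random-sequence level it was 0.54 (4 genes). T and NK cell markers had a median of 0.10 (sums of 7924 and 8135), with Klrb1c at 1.28 by its brightest sequence and its 3 sequences from -1.24 to 1.28. Nkg7 (-0.13) and Ncr1 (-0.20) were the 2 lower ones. The part of these other cells in the members' values was not tested. In RNA from a sorted population, fewer cells that express a gene and less of its RNA per cell cannot be told apart.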

How the data were processed

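LT-HSC RNA of 1 control and 1 knockout array was compared. The authors deposited 1 linear-scale intensity per sequence and array, made with RMA per the submitters' processing notes (version not given in the sources used here). RMA brings the arrays' distributions together, so a shift shared by most genes would not show. Sequences carry MM9 coordinates per the file headers and columns. Gene names were updated by gene identifier through the RefSeq table (21583 identifiers matched), and 217 of 234 listed genes had a row. The unit and the number of arrays allow no test. Intensities were turned into log2 values, the sequence with the highest mean log2 value stood for a gene, and genes were counted at 2-fold (log2 difference of 1). A bound uses the random-sequence level in place of a value at or below it.

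Members and lists were chosen with earlier results of these data known. Named genes were all members and chemokine neighbours, common sort markers and, per list, up to 3 genes at 2-fold or more, or 2 where none was. Calculations used Python 3.11.15, numpy 2.4.6, pandas 2.3.3 and statsmodels 0.14.6, and the counting step was tested on simulated data. The simulated noise was smaller than the spread between sequences of a gene on these arrays. That test therefore says nothing on how many 2-fold differences arise here without a change. Alternatives were the authors' series table, centring, quantile normalization, loess (span 0.3), an offset of 100, the mean or dimmest sequence, other filters on dim genes and folds of 1.5 and 3. Listed genes without a row, such as Fli1 and Zfpm1, were not analysed here.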

Additional observations from a re-analysis of the deposited data

How the results depend on the processing

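No paired analysis was possible because there was only 1 control and 1 knockout array. Under all alternatives in which they were scored, Pf4 stayed between -1.20 and -0.99 and Ppbp between -1.41 and -0.89. Against 2 members at 2-fold or more lower, there were 0 with an offset of 100, 0 at 3-fold, and 1 with the 75th percentile filter or with both arrays above 2 times the random-sequence level, since those filters left out Ppbp. The members' median of -0.24 was -0.72 with the dimmest sequence, over 5 members without Treml1. Genes 2-fold higher and lower numbered 336 and 478 with the offset, 538 and 676 with the 75th percentile filter, 479 and 588 above 2 times the random-sequence level, 3004 and 2972 at 1.5-fold and 242 and 280 at 3-fold, against 1042 and 1185, and the higher ones 677 when all sequences of a gene were averaged. Of 58 values for the members' counts and median and the gene counts under alternatives, 42 stayed close to those reported, and so did 179 of 197 for single genes and other lists. A median was taken as close when it moved by less than 0.66, the SD between sequences of a gene, over the square root of its number of genes, and a count when within 1.5 times. The 42 include the count of members 2-fold higher, which was 0 throughout. By this wide rule the members' median of -0.02, with both arrays above 2 times the random-sequence level, also counted as close to -0.24. Signal over background limits Ppbp in the knockout, Gp5 and the third sequence of Treml1.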
